A study of Mus musculus with 24 samples.

Results

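Fibroblast growth factors (FGFs) and the genes of their signalling chain were followed here across mouse heart fibroblasts given endothelial transcription factors. The 10 genes are 4 ligands (Fgf2, Fgf7, Fgf10 and Fgf18), 3 receptors (Fgfr1, Fgfr2 and Fgfr3) and 3 feedback inhibitors (Spry2, Spry4 and Dusp6). They were taken by gene name from a count table of 35727 gene identifiers, and all 10 were found and passed the filter on low counts that left 14804 genes for testing. The 24 libraries came from cells grown in EGM2, a commercial medium for endothelial cells. They form 8 groups of 3 libraries: control fibroblasts, and cells named in the labels by the transcription factors Erg or Sox17 or by the name SEG, with day 3 and day 7 as the harvest times. The labels call the control cells fibroblasts and all the others iEC, and leave SEG without a fuller name. How the factors were given is not in them, nor is the source of replicate libraries (1 culture or animal, or several), so every p-value rests on a library-to-library spread that may be only technical.

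FGFs are secreted proteins that bind receptor tyrosine kinases together with heparan sulfate on the cell surface. The activated receptor signals through the adaptor FRS2 and the RAS, RAF, MEK and ERK cascade. ERK activity induces its own brakes, among them the Sprouty proteins, which act on the path from receptor to RAS and RAF, and Dusp6, a phosphatase that removes the activating phosphates from ERK. FGF2 is a growth factor for fibroblasts and endothelial cells, while FGF7 and FGF10 are mesenchymal ligands that act mainly on the epithelial form of FGFR2.

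The labels were checked first. Sox17 was at 0 counts in all 6 control libraries and at 1606 ± 53.0 CPM, the count scaled to library size (mean ± SD, n = 3), in the Sox17 cells at day 3. Both factors were present in SEG, at less than with either factor alone: SEG held 0.628 times the Sox17 level at day 3 and 0.647 times at day 7, and 0.179 and 0.187 times the Erg level. Total counts per library ran from 18794422 to 44586227. At day 7, replicate 1 of Sox17 and replicate 1 of SEG stood apart from the rest: ribosomal protein genes took 8.32% and 5.66% of their counts, against 3.30% to 5.13% in the other libraries. The control cells carried fibroblast markers at a summed level of 29649 to 32349 CPM at day 3. The 10 endothelial markers summed to 20.2 to 22.3 CPM there, with Robo4 and Cldn5 at 0, and to 2022 to 2362 CPM in SEG at day 7, with none at 0.

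A difference was called at a Benjamini-Hochberg adjusted p under 0.05 in edgeR's quasi-likelihood test, adjusted over all genes tested. All 24 libraries shared 1 fit and 1 estimate of the spread of each gene, so an SE does not show a wider spread within 1 group. Against control at day 3, 8 of the 10 genes were called in Erg (4 higher, 4 lower), where 46.1% of all genes tested were called (22.6% higher and 23.5% lower). In Sox17 9 of the 10 were called (5 higher, 4 lower; 40.4%, 20.8% higher and 19.6% lower of all genes), and in SEG likewise 9 (5 higher, 4 lower; 40.2%, 20.0% higher and 20.2% lower). At day 7 the counts were 7 in Erg (3 higher, 4 lower; 48.5%, 23.7% higher and 24.8% lower), 8 in Sox17 (3 higher, 5 lower; 54.5%, 29.5% higher and 25.0% lower) and 7 in SEG (3 higher, 4 lower; 44.3%, 22.5% higher and 21.8% lower). The median log2 change of the 10 genes lay between -0.47 in SEG at day 7 and 0.43 in Sox17 at day 3, and the median of all genes between -0.02 and 0.05. Fgf2, Fgfr1 and Spry2 were lower than control in all 6 of these comparisons, and Dusp6 was higher in all 6. The share of all genes called in the same direction in all 6 was not counted. The comparisons at each day share their control libraries. Over all 21 comparisons, leaving out both day 7 libraries that stood apart gained 26 calls among the 210 pairs of a gene and a comparison and lost 1.

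**Figure D1:**
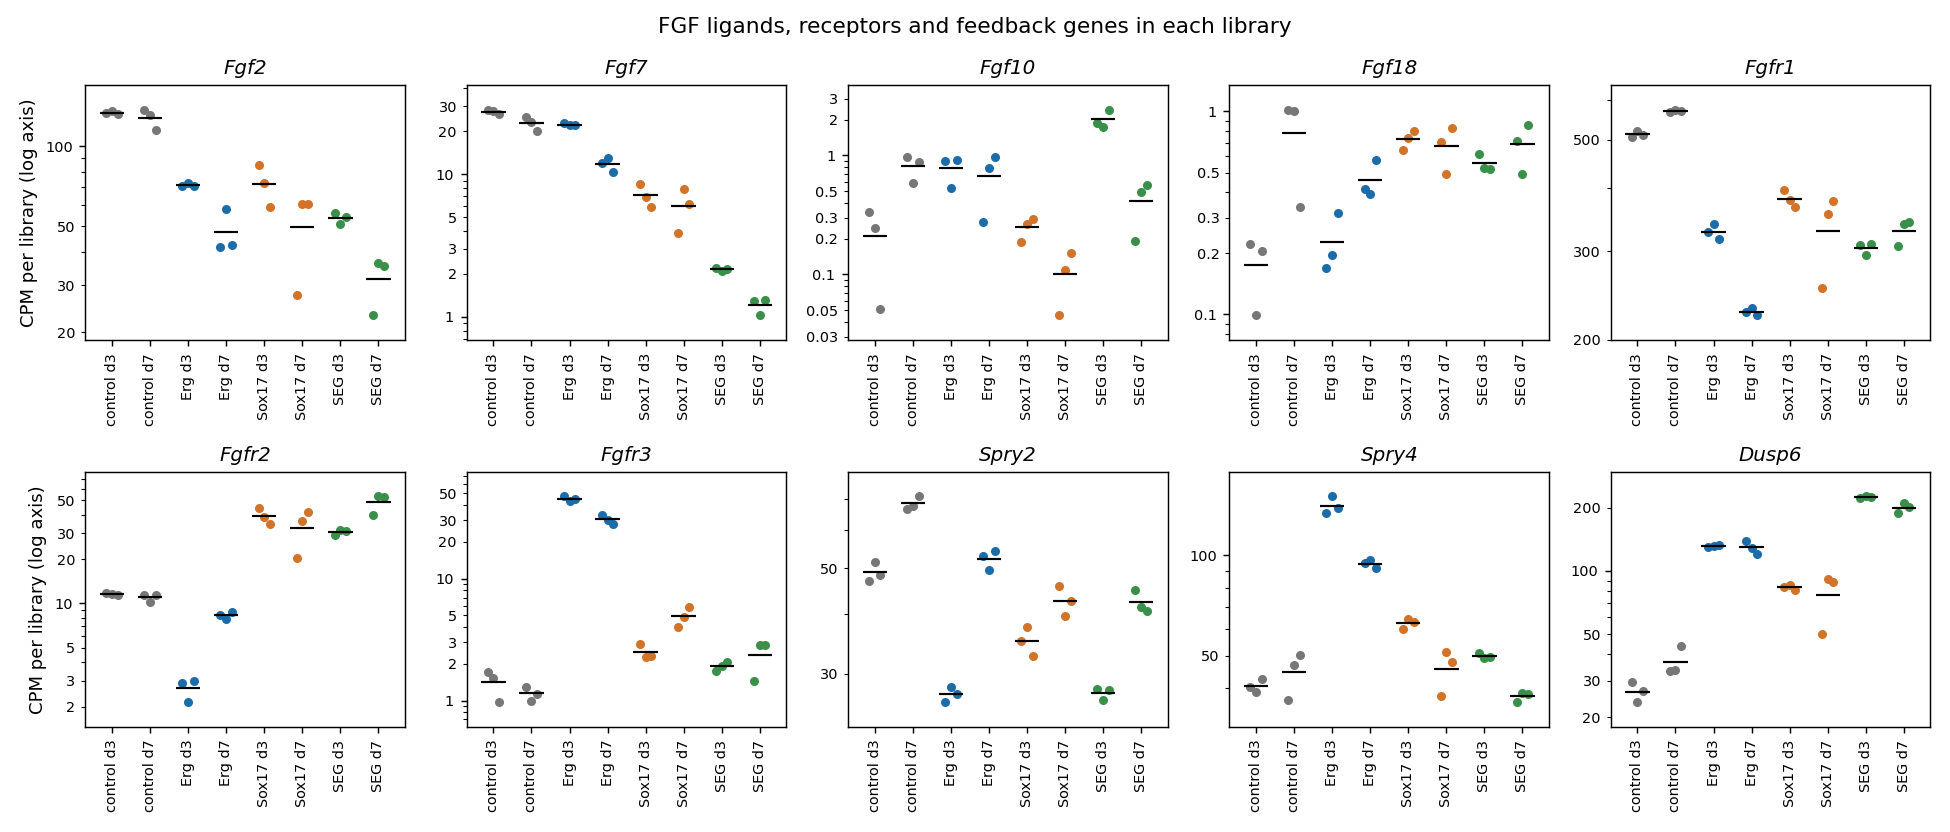
CPM of each of the 10 genes in all 24 libraries, on log axes that differ between panels; points are libraries, bars are means of 3, d3 and d7 are day 3 and day 7. Fgf7 stepped down from control to Erg at day 7, Sox17 and SEG, Fgfr3 stood high only in the 6 Erg libraries, between 27.9 and 47.3 CPM, and Dusp6 was highest in SEG.

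Fgf2 (ENSMUSG00000037225, chr3:37348346-37410108, plus strand, mm10) was the most abundant ligand. Its control libraries held 133, 135 and 132 CPM at day 3 and 137, 131 and 115 CPM at day 7. At day 3 Erg held 70.8, 72.5 and 70.8 CPM, Sox17 85.1, 73.0 and 59.2 CPM, and SEG 56.0, 51.2 and 54.2 CPM. No library with a factor reached the lowest control library at either day. At day 7 Erg held 41.9, 58.2 and 42.4 CPM, Sox17 27.7, 60.8 and 60.4 CPM, and SEG 23.1, 36.3 and 35.6 CPM. The log2 change against control was -0.90 ± 0.22 (SE) in Erg, -0.88 ± 0.22 in Sox17 and -1.31 ± 0.22 in SEG at day 3, and -1.43 ± 0.23, -1.37 ± 0.22 and -2.01 ± 0.23 at day 7. The Erg and Sox17 changes at day 3 were lost in a test of changes beyond 1.5-fold. The lowest library of both the Sox17 and the SEG group at day 7 was the one that stood apart, and without these libraries the Sox17 change was -1.04 and the SEG change -1.79. In SEG the fall from 134 ± 1.60 CPM to 53.8 ± 2.46 CPM at day 3 was 2.48-fold, and at day 7 it was 4.04-fold. SEG did not differ from Erg or from Sox17 beyond the test's threshold at day 3 (edgeR adjusted p = 0.136 and 0.171), and was lower than both at day 7 (0.0369 and 0.0269). Those calls changed with single libraries: without replicate 1 of Sox17 at day 7 both day 3 differences passed (-0.41 and -0.43, adjusted p = 0.017 and 0.0176), and without replicate 1 of SEG neither day 7 difference did (-0.40 and -0.46, 0.161 and 0.116). Without both of these libraries both day 7 differences passed (-0.41 and -0.75, adjusted p = 0.00728 and 8.1e-05). The day 7 difference from Erg was also lost without Erg replicate 2, and that from Sox17 without its replicate 2 or 3. The Fgf2 exons share 640 bases with Nudt6 on the opposite strand, which was between 1.33 and 2.57 CPM in the group means. Whether counting used strand is not given in the sources used here, so reads of the shared bases cannot be assigned to one of them.

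Fgf7 (ENSMUSG00000027208, chr2:126034658-126091185, plus strand), the keratinocyte growth factor made by mesenchymal cells, fell furthest in SEG. The 3 control libraries held 28.4, 27.8 and 26.3 CPM at day 3 and 25.1, 23.3 and 20.3 CPM at day 7. SEG held 2.20, 2.11 and 2.17 CPM at day 3 and 1.29, 1.03 and 1.30 CPM at day 7, from 25 to 58 counts a library. The fall was 12.7-fold at day 3 (log2 change -3.67 ± 0.20, edgeR adjusted p = 1.17e-11) and 19.0-fold at day 7 (-4.24 ± 0.22, 2.16e-12). Sox17 stood between, with 8.57, 6.88 and 5.85 CPM at day 3 and 3.86, 7.83 and 6.20 CPM at day 7. Its log2 change was -1.95 ± 0.18 and -1.94 ± 0.18, the latter -1.66 without the library that stood apart. The Erg libraries held 22.7, 22.1 and 22.1 CPM at day 3, a log2 change of -0.30 ± 0.17 that did not pass the test (adjusted p = 0.169). It passed when replicate 1 of Sox17 at day 7 was left out (-0.30, adjusted p = 0.0266). At day 7 Erg had fallen to 12.01, 13.1 and 10.3 CPM (-0.96 ± 0.18, adjusted p = 0.00016). SEG lay below Erg by 3.37 ± 0.20 on the log2 scale at day 3 and below Sox17 by 1.72 ± 0.20, and none of its libraries overlapped with theirs. At that day 72.3% of all genes tested did not overlap between SEG and Erg, and 54.5% between SEG and Sox17.

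Fgf10 (ENSMUSG00000021732, chr13:118669791-118792115, plus strand), a ligand of limb and lung development, was near the limit of detection, with 1 to 65 counts a library. It was highest in SEG at day 3, with 1.89, 1.73 and 2.43 CPM from 37, 46 and 65 counts, against 0.335, 0.248 and 0.0512 CPM from 6, 5 and 1 counts in control. This made it 9.56-fold higher (log2 change 3.24 ± 0.51, edgeR adjusted p = 2.68e-05), and every SEG library was above every library of the other 7 groups. Erg at day 3 was also higher than control (0.903, 0.537 and 0.923 CPM; 1.90 ± 0.54), and Sox17 was not called (0.23 ± 0.59). In control cells Fgf10 rose from day 3 to day 7, to 0.964, 0.591 and 0.888 CPM (1.93 ± 0.54). Sox17 at day 7 was the lowest group, at 0.0454, 0.109 and 0.151 CPM from 2, 4 and 4 counts, with a log2 change against control of -3.02 ± 0.55, or -2.59 without the library that stood apart.

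Fgf18 (ENSMUSG00000057967, chr11:33117430-33147400, minus strand), a ligand of bone and lung growth, was as scarce, with 2 to 31 counts a library. At day 3 it was higher than control in Sox17 (0.649, 0.736 and 0.800 CPM against 0.223, 0.0991 and 0.205 CPM; log2 change 2.03 ± 0.43) and in SEG (0.613, 0.528 and 0.523 CPM; 1.64 ± 0.45), and not called in Erg (0.45 ± 0.50). Control cells rose by day 7 to 1.02, 0.9998 and 0.338 CPM (2.13 ± 0.44), a group whose replicate 3 lay well below the others. No condition differed from control at day 7 by the test, with log2 changes from -0.72 ± 0.37 to -0.17 ± 0.36. Without control replicate 3, the Erg change at day 7 passed (-1.10, edgeR adjusted p = 0.0111).

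Per kilobase of exon, the scale on which levels of different genes can be set side by side, the 4 ligands summed to 28.4 ± 0.506 CPM per kb in control at day 3 and to 5.71 ± 1.10 in SEG at day 7. Fgf2 made up 69.5% ± 0.788 of that sum in control at day 3 and 83.5% ± 0.401 in SEG. Fgf7 made up 29.9% ± 0.646 in control, 38.7% ± 0.575 in Erg, 16.1% ± 0.556 in Sox17 and 7.00% ± 0.186 in SEG at the same day. The sum was below control in all 6 groups with a factor, at 17.8 ± 0.0270 CPM per kb in Erg and 13.5 ± 2.25 in Sox17 at day 3, and no test was made of it.

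Among the receptors, Fgfr1 (ENSMUSG00000031565, chr8:25513654-25575718, plus strand), the main FGF receptor of mesenchymal cells, was the most abundant in every group. Control libraries held 506, 519 and 510 CPM at day 3 and 567, 573 and 569 CPM at day 7. At day 3 Erg held 327, 339 and 318 CPM, Sox17 397, 378 and 367 CPM, and SEG 308, 295 and 310 CPM. The log2 changes at that day were -0.64 ± 0.10, -0.43 ± 0.10 and -0.75 ± 0.10, and all of them were lost in a test of changes beyond 1.5-fold. Erg at day 7 was the lowest group, at 227, 232 and 224 CPM, 2.50-fold below control (-1.32 ± 0.10, edgeR adjusted p = 1.29e-09). Sox17 at day 7 held 254, 356 and 378 CPM and SEG 307, 340 and 342 CPM, and both changes were -0.79 ± 0.10. Without the libraries that stood apart they were -0.60 and -0.71. The equal SEs come from the shared estimate of spread, while the SD was 66.2 CPM in Sox17 and 19.5 CPM in SEG.

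Fgfr2 (ENSMUSG00000030849, chr7:130162451-133123350, minus strand), whose splice forms answer either FGF7 and FGF10 or FGF2, moved in opposite directions in the cells with Sox17 and with Erg. The control libraries held 11.8, 11.6 and 11.4 CPM at day 3 and 11.4, 10.3 and 11.3 CPM at day 7. In Sox17 they were 44.7, 38.5 and 34.4 CPM at day 3 and 20.4, 36.1 and 41.4 CPM at day 7, and in SEG 29.2, 31.6 and 31.2 CPM and then 40.0, 53.2 and 52.7 CPM. All of these lay above every control library. In the Sox17 and SEG comparisons with control, 54.3% to 64.8% of all genes tested did not overlap. Erg at day 3 held 2.88, 2.15 and 2.97 CPM, below every other library of the series. Against control, Sox17 was 3.39-fold higher at day 3 (log2 change 1.76 ± 0.19, edgeR adjusted p = 1.67e-07) and SEG 2.65-fold higher (1.41 ± 0.19, 3.69e-06), while Erg was 4.34-fold lower (-2.11 ± 0.21, 6.2e-08). At day 7 SEG was 4.42-fold higher (2.14 ± 0.19) and Sox17 2.97-fold higher (1.57 ± 0.19), or 2.30 and 1.85 on the log2 scale without the libraries that stood apart. Erg had come back to 8.41, 7.87 and 8.71 CPM, a change of -0.40 ± 0.19 that did not pass (adjusted p = 0.0902). It passed without replicate 1 of Sox17 at day 7 (-0.40, adjusted p = 0.0085). The annotated Fgfr2 exons share 314 bases on the same strand with Ctbp2, a corepressor gene. Ctbp2 held 55.3 ± 2.07 CPM in control, 98.4 ± 1.39 in Sox17, 105 ± 7.29 in SEG and 56.7 ± 2.55 in Erg at day 3, and its part in the Fgfr2 counts was not tested.

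Fgfr3 (ENSMUSG00000054252, chr5:33721674-33737068, plus strand), a receptor best known from cartilage and epithelia, was nearly silent in control cells and rose most with Erg. Control libraries held 1.73, 1.54 and 0.972 CPM at day 3, from 19 to 31 counts, and 1.30, 0.9998 and 1.14 CPM at day 7. Erg libraries held 47.3, 43.7 and 44.6 CPM at day 3 and 33.6, 30.6 and 27.9 CPM at day 7. The rise was 32.03-fold (log2 change 5.001 ± 0.23, edgeR adjusted p = 7.74e-13) and then 26.7-fold (4.74 ± 0.23, 2.22e-12), and these were the largest changes against control among the 10 genes at either day. SEG, which also holds Erg, had 1.74, 1.92 and 2.06 CPM at day 3, not called against control (0.44 ± 0.24, adjusted p = 0.163), and 1.43, 2.87 and 2.85 CPM at day 7 (1.07 ± 0.24, or 1.36 without the library that stood apart). SEG was 23.7-fold below Erg at day 3 and 12.9-fold below it at day 7. Sox17 held 2.89, 2.29 and 2.31 CPM at day 3 and 4.02, 4.88 and 5.82 CPM at day 7, a change of 0.83 ± 0.23 and then 2.09 ± 0.23. The former no longer passed in a test of changes beyond 1.5-fold, or without control replicate 3 (0.62, adjusted p = 0.0536). Fgfr3 shares 998 exon bases with a transcript on the opposite strand, G630022F23Rik, whose level was not analysed here.

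Promoter sequence is shown for 4 of the 10 genes, chosen after their values were seen: Fgfr3, which rose most with Erg, Fgfr2, which differed in direction between Erg and Sox17, Fgf7, which fell most in SEG, and Dusp6, which rose in all 6 comparisons with control. Each line gives the bases before a RefSeq start site (GRCm38.p6), 5' to 3' on the gene's strand: Fgfr3 chr5:33721474-33721673 plus, Fgfr2 chr7:130266809-130267058 minus, Fgf7 chr2:126034408-126034657 plus and Dusp6 chr10:99262981-99263230 plus. For Fgfr3 the 50 bases next to the start lie in an annotated exon and are left out. Capitals mark a match to 1 of 4 motifs.
Fgfr3: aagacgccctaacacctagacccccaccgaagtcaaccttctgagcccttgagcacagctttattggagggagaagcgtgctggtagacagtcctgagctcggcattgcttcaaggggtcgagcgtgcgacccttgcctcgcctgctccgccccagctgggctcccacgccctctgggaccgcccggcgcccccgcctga
Fgfr2: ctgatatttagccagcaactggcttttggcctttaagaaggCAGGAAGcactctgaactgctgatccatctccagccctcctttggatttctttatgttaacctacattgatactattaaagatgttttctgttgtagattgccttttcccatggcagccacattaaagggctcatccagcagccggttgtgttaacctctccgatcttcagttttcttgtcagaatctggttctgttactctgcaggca
Fgf7: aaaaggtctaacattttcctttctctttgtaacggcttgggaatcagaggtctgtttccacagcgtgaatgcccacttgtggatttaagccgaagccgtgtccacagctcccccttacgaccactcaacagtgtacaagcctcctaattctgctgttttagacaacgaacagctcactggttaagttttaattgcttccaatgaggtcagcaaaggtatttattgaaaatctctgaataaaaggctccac
Dusp6: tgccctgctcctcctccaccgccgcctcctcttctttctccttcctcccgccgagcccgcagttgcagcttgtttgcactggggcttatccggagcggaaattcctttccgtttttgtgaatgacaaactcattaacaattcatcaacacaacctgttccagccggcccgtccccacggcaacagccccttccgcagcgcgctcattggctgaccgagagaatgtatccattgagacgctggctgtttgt
Both strands of the 250 bases before the start were searched for letters of ETS factors, the family of Erg (CCGGAAG and CAGGAAG), and of SOX factors (AACAATG and ACAATAG). The search covered 9 promoters of 8 of the 10 genes, and Fgfr1 and Spry4 were not searched. The only match in these promoters was CAGGAAG in the Fgfr2 promoter, on the gene's own strand as printed, which is the minus strand of the chromosome. It lay 209 to 203 bases before the start, so no motif overlapped another. The bases after that RefSeq start were found in 0 of the GENCODE transcripts of Fgfr2. Of 32851 promoters of this length, 10.8% held CAGGAAG, 17.0% held either ETS motif and 5.21% held either SOX motif. A match in these letters describes the sequence and is not a binding site.

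**Figure D2:**
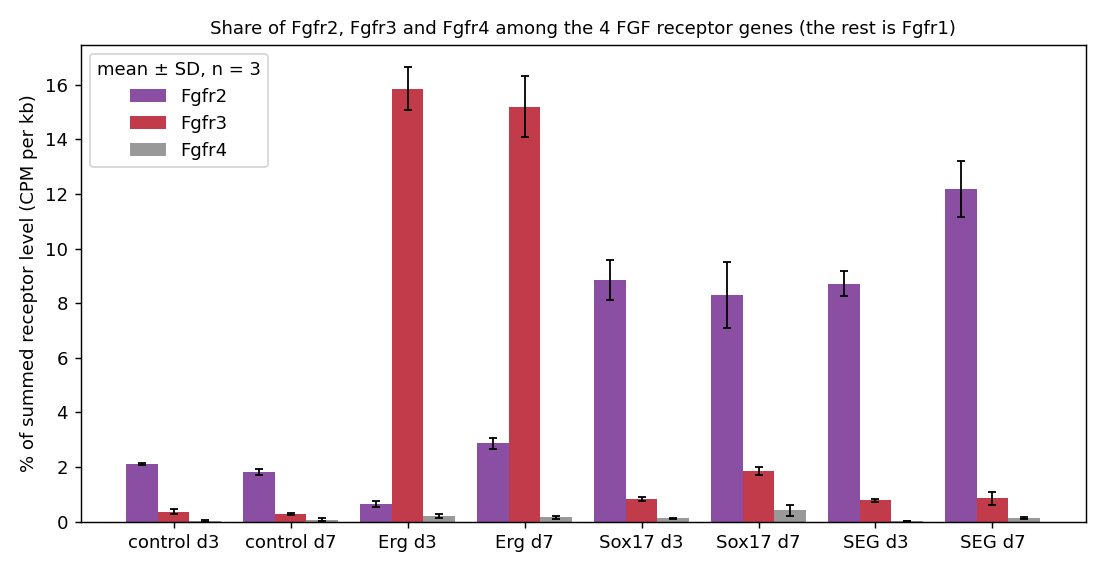
Share of each receptor in the summed CPM per kilobase of Fgfr1, Fgfr2, Fgfr3 and Fgfr4, as the mean of 3 libraries with the SD, by group (d3 and d7 are day 3 and day 7). Fgfr1 fell from 97.5% in control at day 3 to 83.3% in Erg, where Fgfr3 took 15.9%, and Fgfr2 reached 12.2% in SEG at day 7.

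The makeup of the receptors was described by their shares, with no test. Over Fgfr1 to Fgfr4, per kilobase of exon, Fgfr1 held 97.5% ± 0.118 of the receptor sum in control at day 3 and 97.8% ± 0.136 at day 7. In Erg Fgfr3 took 15.9% ± 0.784 at day 3 and 15.2% ± 1.12 at day 7, with Fgfr2 at 0.649% ± 0.123 and 2.86% ± 0.201. In Sox17 it was Fgfr2 that took 8.85% ± 0.731 and 8.30% ± 1.202, and in SEG 8.72% ± 0.475 and 12.2% ± 1.03. Fgfr3 reached at most 1.97% in the Sox17 and SEG libraries. The receptor sum itself was 53.2 ± 0.699 CPM per kb in control at day 3 and 59.0 ± 0.256 at day 7, and was lowest in Erg at day 7, at 28.2 ± 0.636. Because Fgfr2 is annotated with exons that reach Ctbp2, its length and so its share depend on the annotation. Fewer cells that express a gene and less RNA per cell cannot be told apart in these bulk libraries.

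The feedback genes did not move together. Dusp6 (ENSMUSG00000019960, chr10:99263231-99267489, plus strand) was higher with every factor at both days. Control libraries held 29.4, 23.7 and 26.7 CPM at day 3 and 33.3, 33.9 and 43.8 CPM at day 7. At day 3 Erg held 130, 132 and 133 CPM, Sox17 83.9, 85.5 and 80.7 CPM, and SEG 222, 227 and 227 CPM, so that the 4 conditions were fully apart. In single pairs of conditions at that day, 54.5% to 73.6% of all genes tested did not overlap. The rise was 4.95-fold in Erg (log2 change 2.31 ± 0.16, edgeR adjusted p = 6.16e-10), 3.14-fold in Sox17 (1.65 ± 0.16, 5.1e-08) and 8.47-fold in SEG (3.08 ± 0.17, 9.69e-12). At day 7 Erg held 140, 129 and 120 CPM, Sox17 49.9, 91.1 and 89.0 CPM, and SEG 188, 212 and 202 CPM. The changes were 1.81 ± 0.16, 1.05 ± 0.16 and 2.44 ± 0.16, and without the libraries that stood apart the Sox17 change was 1.31 and the SEG change 2.51. SEG was above Erg by 0.78 ± 0.16 and above Sox17 by 1.43 ± 0.16 on the log2 scale at day 3, and by 0.63 ± 0.16 and 1.39 ± 0.16 at day 7.

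Spry4 (ENSMUSG00000024427, chr18:38586247-38601415, minus strand), a Sprouty inhibitor of receptor tyrosine kinase signalling, rose mainly with Erg. Control libraries held 40.2, 38.9 and 42.8 CPM at day 3 and 36.8, 46.8 and 50.4 CPM at day 7. Erg held 133, 150 and 139 CPM at day 3, 3.47-fold above control (log2 change 1.79 ± 0.11, edgeR adjusted p = 4.93e-11), and 94.7, 96.9 and 91.6 CPM at day 7 (1.08 ± 0.11, 5.78e-08). Sox17 was higher at day 3, at 60.1, 64.7 and 63.3 CPM (0.63 ± 0.11, lost beyond 1.5-fold), and overlapped with control at day 7, at 37.9, 51.4 and 47.9 CPM. SEG at day 3 held 51.1, 49.1 and 49.7 CPM, a change of 0.30 ± 0.11 that passed (adjusted p = 0.0286) but not without control replicate 1 or 2, or any of its own libraries (0.27 to 0.31, adjusted p from 0.0525 to 0.0992). SEG at day 7 was not called (36.4, 38.8 and 38.5 CPM; -0.24 ± 0.11), but passed without control replicate 1 (-0.36, adjusted p = 0.00667) or without replicate 1 of Sox17 at day 7 (-0.24, adjusted p = 0.017).

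Spry2 (ENSMUSG00000022114, chr14:105891947-105896819, minus strand), of the same family, was lower than control in all 6 comparisons. Its control libraries held 47.0, 51.5 and 48.4 CPM at day 3 and 66.7, 67.7 and 70.8 CPM at day 7. At day 3 Erg held 26.1, 28.2 and 27.1 CPM and SEG 27.9, 26.4 and 27.7 CPM, groups that overlapped with each other, while Sox17 held 35.2, 37.6 and 32.7 CPM. The log2 changes were -0.85 ± 0.07 in Erg, -0.84 ± 0.07 in SEG and -0.48 ± 0.07 in Sox17. At day 7 Erg held 53.1, 49.6 and 54.2 CPM, Sox17 46.0, 39.6 and 42.7 CPM, and SEG 44.9, 41.5 and 40.6 CPM, with changes of -0.39 ± 0.07, -0.68 ± 0.07 and -0.69 ± 0.07. In a test of changes beyond 1.5-fold only the Erg and SEG changes at day 3 remained. In the Erg cells the Sprouty genes thus differed in direction at both days, with Spry4 higher and Spry2 lower than control.

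**Figure D3:**
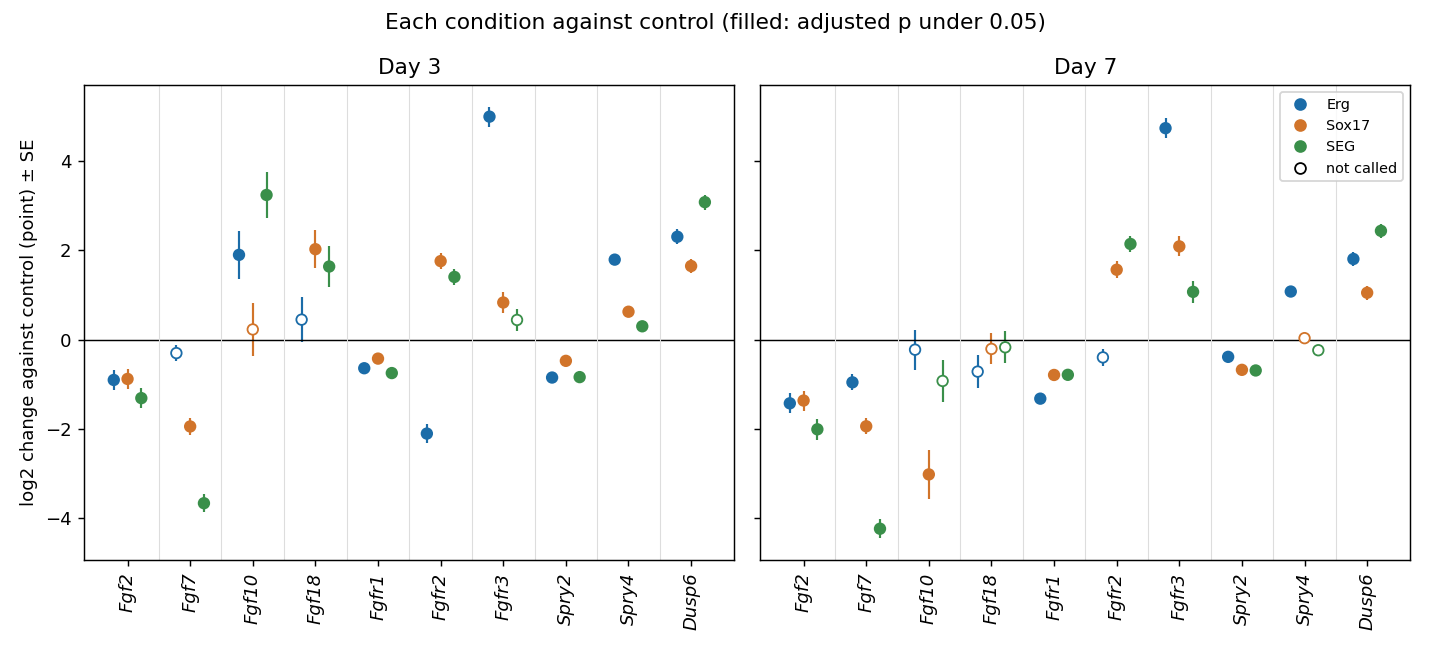
Log2 change of the 10 genes against control in each condition at both days, with the SE of edgeR's fit; filled points were called at an adjusted p under 0.05. Fgfr3 reached 5.001 in Erg at day 3, Fgf7 reached -4.24 in SEG at day 7, and Fgfr2 lay at -2.11 in Erg and at 1.76 in Sox17 at day 3.

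The conditions were also compared with each other. At day 3, SEG differed from Erg in 7 of the 10 genes (4 higher, 3 lower; 51.0% of all genes tested were called, 25.7% higher and 25.3% lower) and from Sox17 in 6 (2 higher, 4 lower; 28.3%, 14.0% higher and 14.2% lower), and Sox17 from Erg in 8 (3 higher, 5 lower; 55.3%, 28.4% higher and 26.8% lower). At day 7 SEG differed from Erg in 8 (3 higher, 5 lower; 49.4%, 24.7% higher and 24.8% lower) and from Sox17 in 7 (3 higher, 4 lower; 39.9%, 18.8% higher and 21.2% lower), and Sox17 from Erg in 8 (2 higher, 6 lower; 55.0%, 29.1% higher and 25.9% lower). In fits of only the groups compared, SEG differed from Sox17 at day 7 in 2 of the 10 genes (2174 of all genes). Sox17 then differed from Erg at day 7 in 4 (4773 of all genes). Fgfr2 was 14.7-fold higher in Sox17 than in Erg at day 3 (log2 difference 3.87 ± 0.21) and 11.5-fold higher in SEG than in Erg (3.51 ± 0.21). Fgfr2 in SEG and in Sox17 at day 3 differed by -0.35 ± 0.18, which did not pass (edgeR adjusted p = 0.159) but did without replicate 1 of Sox17 at day 7. Fgfr1 at day 7 was higher in SEG than in Erg by 0.53 ± 0.10 and in Sox17 than in Erg by 0.53 ± 0.10. SEG and Sox17 overlapped in Fgfr1 at that day, at 330 ± 19.5 and 329 ± 66.2 CPM, and without replicate 1 of Sox17 the SEG level was lower by 0.15 on the log2 scale (-0.15, adjusted p = 0.028). Without replicate 1 of both conditions that difference was -0.10 and did not pass (adjusted p = 0.0907). Fgf7 separated SEG from both other conditions at both days, and Fgfr3 and Spry4 were lower in SEG than in Erg at both days.

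**Figure D4:**
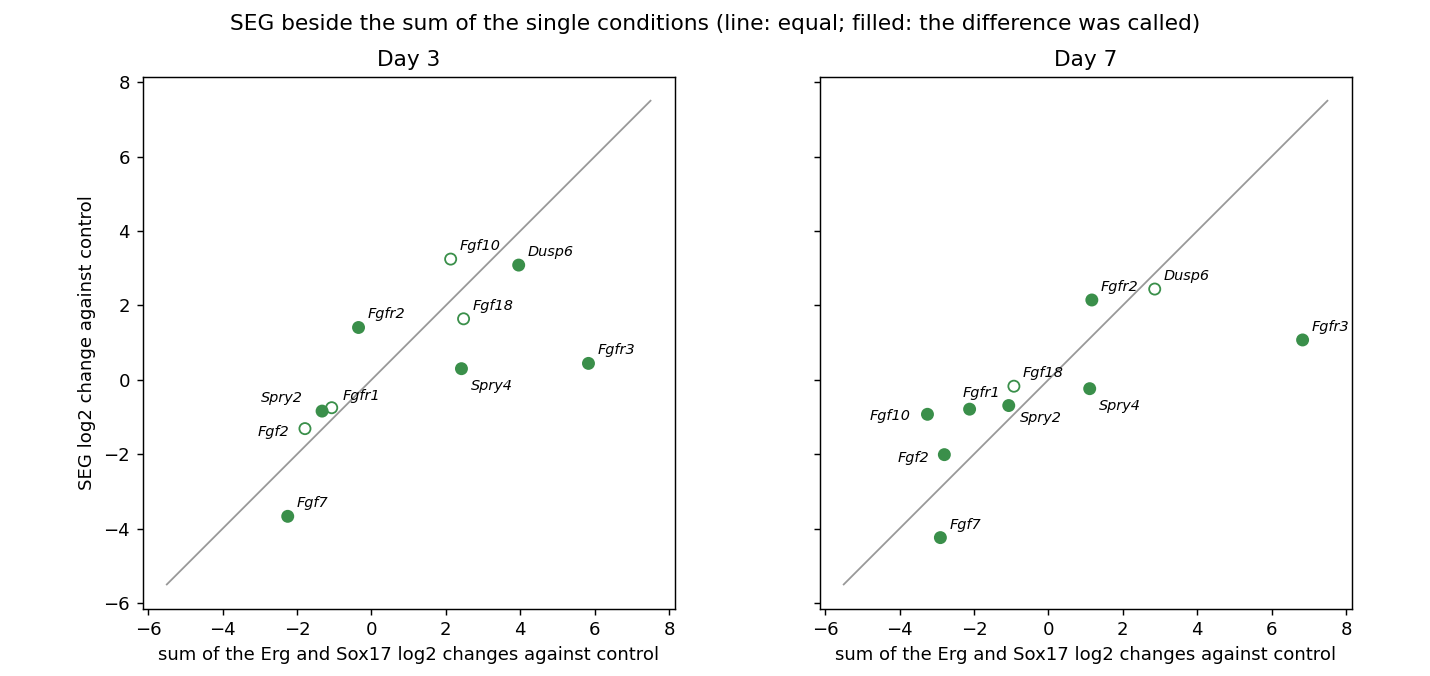
Log2 change of each gene in SEG against control (vertical axis) beside the sum of its Erg and Sox17 log2 changes (horizontal axis), at day 3 and day 7; the line marks equal values, and filled points are genes whose difference from the sum was called. Fgfr3 lay furthest below the line (-5.39 at day 3 and -5.76 at day 7), and Fgfr2 lay above it at both days.

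As SEG holds both factors, its change was set against the sum of the Erg and Sox17 log2 changes, as a measure only, since each factor was at a lower level in SEG than alone and the labels do not say whether SEG holds a further factor. At day 3, 6 of the 10 genes differed from the sum (2 above, 4 below; 36.0% of all genes tested were called, 18.2% higher and 17.8% lower), and at day 7, 8 did (5 above, 3 below; 48.8%, 23.8% higher and 25.0% lower). For Fgfr3 the sum was 5.83 at day 3 and the SEG change 0.44, a difference of -5.39 ± 0.31 (edgeR adjusted p = 6.31e-11). At day 7 the difference was -5.76 ± 0.30. Spry4 also lay below its sum, by -2.12 ± 0.15 at day 3 and -1.35 ± 0.15 at day 7. Fgf7 fell by more than the sum, with a difference of -1.42 ± 0.26 at day 3 and -1.34 ± 0.28 at day 7. Fgfr2 was above its sum, by 1.75 ± 0.27 and 0.98 ± 0.26, as was Spry2, by 0.49 ± 0.10 and 0.37 ± 0.10. Dusp6 was below it at day 3 (-0.87 ± 0.22) and not called at day 7 (-0.42 ± 0.22, adjusted p = 0.121), where it passed without both libraries that stood apart (-0.65, adjusted p = 0.000106). Fgf2 was not called at day 3 (0.47 ± 0.31) and above its sum at day 7 (0.78 ± 0.31, adjusted p = 0.0459), which no longer passed with RLE size factors (0.75, adjusted p = 0.0557) and in most fits that left out a library.

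Between the days, control cells changed in 4 of the 10 genes, all higher at day 7 (29.5% of all genes were called, 16.1% higher and 13.4% lower): Fgf10, Fgf18, Spry2 (0.48 ± 0.07) and Dusp6 (0.48 ± 0.16). In Erg 6 changed (2 higher, 4 lower; 30.0%, 15.6% higher and 14.4% lower), in Sox17 3 (2 higher, 1 lower; 29.5%, 16.6% higher and 12.9% lower) and in SEG 6 (2 higher, 4 lower; 27.2%, 14.3% higher and 12.9% lower). Spry2 was higher at day 7 than at day 3 in all 4 conditions, by 0.95 ± 0.07 in Erg, 0.28 ± 0.07 in Sox17 and 0.63 ± 0.07 in SEG. Spry4 was lower at day 7 in Erg (-0.58 ± 0.10), Sox17 (-0.45 ± 0.10) and SEG (-0.40 ± 0.11), with no call in control (0.14 ± 0.11). Fgfr2 in Erg rose 3.12-fold between the days (1.64 ± 0.21), while Fgfr1 fell in the same cells (-0.53 ± 0.10). Fgf10 fell 4.83-fold in SEG (-2.24 ± 0.44). The Dusp6 change in control was lost without replicate 2 or 3 of day 3 or replicate 3 of day 7. Leaving out control replicate 3 at day 3 took the count in control from 4 to 2, and leaving out Sox17 replicate 2 or 3 at day 7 took that in Sox17 from 3 to 5 or 6. A fit of only the Sox17 groups called 0 of the 10 genes (857 of all genes).

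Tests of whether an effect changed between the days called 5 genes for Erg (2 higher, 3 lower; 19.7%, 9.34% higher and 10.4% lower of all genes tested), 4 for Sox17 (1 higher, 3 lower; 14.3%, 7.61% higher and 6.66% lower) and 3 for SEG (0 higher, 3 lower; 11.9%, 6.09% higher and 5.77% lower). The Fgfr2 effect of Erg differed by 1.71 ± 0.28 between day 3 and day 7 (edgeR adjusted p = 0.00018) and its Fgfr1 effect by -0.68 ± 0.14. The Fgfr3 effect of Sox17 differed by 1.26 ± 0.33, and no longer passed without control replicate 1 of day 3. The Dusp6 effects of the 3 conditions were smaller at day 7 by 0.50 to 0.64 on the log2 scale, without passing the test (adjusted p from 0.0684 to 0.131). Without both day 7 libraries that stood apart all 3 passed, at -0.47 in Erg (adjusted p = 0.0023), -0.34 in Sox17 (0.0473) and -0.57 in SEG (0.00125). Without replicate 1 of Sox17 at day 7 the count for Erg went from 5 to 8 and that for SEG from 3 to 6, while leaving out control replicate 2 of day 3 or of day 7 took the SEG count to 1. Fits of only the groups compared called 8 genes for Erg, 2 for Sox17 and 6 for SEG (6442, 1129 and 2746 of all genes).

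The other genes of the pathway were read from 7 lists. Over all genes tested, 20.0% to 29.5% were called higher and 19.6% to 25.0% lower in the 6 comparisons with control, and list counts are read beside that. Of 18 other genes of the FGF family 10 could be tested. The list holds the intracellular factors Fgf11, Fgf12, Fgf13 and Fgf14, so its counts are not of secreted ligands alone. In Sox17 5 were higher and 0 lower at day 3 and 6 higher and 2 lower at day 7, in SEG 2 and 1 and then 3 and 2, and in Erg 3 and 2 at both days. The 3 higher in SEG at day 7 became 1 on leaving out any 1 of the control libraries or SEG replicate 2, and the 0 lower in Sox17 at day 3 became 1 without its replicate 2 or replicate 1 or 3 of Sox17 at day 7. Fgf12, an intracellular FGF homologous factor, was at 0 counts in control and at 1.17 ± 0.281 CPM in Sox17 at day 3 and 5.14 ± 0.521 CPM at day 7, at least 22.9-fold and at least 107-fold higher against a floor of 3 counts over the control group. Fgf13, of the same subgroup, rose in Sox17 at day 7 (1.52, 2.70 and 4.38 CPM, the first from the library that stood apart, against 0.0633 ± 0.0250) and in SEG (1.99 ± 0.759 CPM), and Fgf14 fell in Erg and Sox17 at day 7, from 5.05 ± 1.08 CPM to 1.11 ± 0.390 and 1.33 ± 1.01. Fgf23, the hormone of phosphate balance, was at 3.24 ± 0.183 CPM in Sox17 at day 3 against 1 count in the 3 control libraries, a ratio of 186 (95% counting interval 33.2 to 7379). Fgf1, which binds all FGF receptors, fell in SEG at both days, from 1.38 ± 0.154 to 0.328 ± 0.0430 CPM and from 1.69 ± 0.502 to 0.416 ± 0.0813 CPM, and in Erg at day 3 (0.640 ± 0.135 CPM).

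Of 11 other receptors and co-receptors 8 were tested. Erg had 2 higher and 5 lower at day 3 and 1 higher and 5 lower at day 7, with list medians of -0.82 and -0.61, whereas SEG had 4 higher and 2 lower and then 4 higher and 0 lower. The 2 higher in Erg at day 3 became 1 without control replicate 1, and the 1 higher at day 7 became 2 in most fits that left out a library. Flrt3, a membrane protein that binds FGF receptors, rose in all 6 comparisons with control, most in Erg at day 7 (11.3 ± 0.393 against 0.752 ± 0.214 CPM, log2 change 3.89). Nrp1, a co-receptor better known for VEGF and semaphorins, rose in Sox17 (298 ± 57.0 CPM) and SEG (299 ± 30.1 CPM) at day 3 from 64.7 ± 0.763 CPM. The adhesion molecules Ncam1 and L1cam, which can bind FGF receptors, fell with all 3 conditions at day 3, Ncam1 from 67.4 ± 3.17 CPM to 17.4 ± 0.776 in Erg, 21.97 ± 2.13 in Sox17 and 19.1 ± 0.844 in SEG. Cdh2, N-cadherin, fell in Erg at day 7 (239 ± 30.1 against 630 ± 3.28 CPM).

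Heparan sulfate genes make the co-receptor sugar of FGF signalling. Of 23 tested, 13 were lower and 5 higher in Erg at day 3, 11 and 5 in Sox17, and 11 and 4 in SEG. At day 7 the counts were 16 lower and 3 higher in Erg, 13 and 5 in Sox17, and 10 and 8 in SEG. The 3 higher in Erg became 1 on leaving out any 1 of the control libraries of that day, or Erg replicate 1. List medians ran from -0.53 in Sox17 at day 7 to -0.12 in SEG at day 7. Hs3st3a1, a 3-O-sulfotransferase, fell in all 3 conditions at day 3, from 8.70 ± 0.260 CPM to 3.22 ± 0.554 in Erg, 2.76 ± 0.459 in Sox17 and 2.44 ± 0.689 in SEG. Sulf2, an enzyme that removes sulfate from the chains, fell in SEG at day 7 (181 ± 10.9 against 560 ± 18.7 CPM), and Sulf1 in Erg (143 ± 12.4 against 400 ± 10.01 CPM). The glypican Gpc2 rose in all 6 comparisons, and Gpc3 fell in Sox17 and SEG at both days, in SEG at day 7 to 0.300 ± 0.0244 from 3.85 ± 0.633 CPM. Hs3st1 rose in SEG, from 9.56 ± 1.61 to 45.2 ± 1.91 CPM at day 7, and in Sox17 at day 3, from 11.7 ± 1.09 to 21.3 ± 2.23 CPM.

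Adaptors and signal transducers carry the signal inside the cell. Of 26 tested, 5 were higher and 5 lower in Erg at day 3, 5 and 2 in Sox17, and 11 and 3 in SEG, and at day 7 the counts were 1 and 5, 7 and 6, and 7 and 4. List medians lay between -0.15 and 0.14. Pik3r1, a regulatory subunit of PI3 kinase, fell in Erg at both days and in Sox17 and SEG at day 7, in Erg from 191 ± 10.5 to 74.1 ± 9.68 CPM at day 7. Stat3 fell in Erg at both days, to 156 ± 8.92 from 348 ± 5.30 CPM at day 7. The counts of this list hung on single libraries: without replicate 1 of Sox17 at day 7 the lower count in Erg went from 5 to 8 at day 3 and to 10 at day 7, and the higher count from 5 to 10 in Sox17 at day 3 and from 7 to 11 in SEG at day 7. Without control replicate 1 or 2, or a SEG library, the higher count in SEG at day 3 went from 11 to 6 or 7, and without control replicate 1 or 3, or Erg replicate 1 or 2, the lower count in Erg at day 3 went to 3. The higher count in Erg at day 7 went from 1 to 4 without replicate 1 of Sox17 at day 7, to 3 without its replicate 2 or 3, and to 2 without Erg replicate 1 of day 3 or SEG replicate 1 of day 7. The lower count at day 3 went from 3 to 1 in SEG without control replicate 3 or SEG replicate 2 or 3, and from 2 to 1 in Sox17 without any 1 of the libraries of either group. Mapk3, which encodes ERK1, rose in Sox17 (622, 379 and 350 CPM) and SEG (440, 339 and 345 CPM) at day 7 from 187 ± 0.973 CPM, and the highest library of each was the one that stood apart.

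Of 16 other feedback inhibitors tested, 5 were higher and 2 lower in Erg at day 3, 5 and 4 in Sox17, and 6 and 3 in SEG, and at day 7 the counts were 7 and 4, 5 and 5, and 5 and 5. The higher count in Erg at day 3 was 8 without any of the 3 Sox17 libraries of day 7 or replicate 1 of SEG, the lower count in Erg at day 7 was 2 without control replicate 2 or Erg replicate 3, and the lower count in SEG at day 7 was 3 without its replicate 1. At day 3 the lower count in Erg was 4 without replicate 1 of Sox17 at day 7, and that in SEG was 5 without the same library and 1 without control replicate 1 or SEG replicate 3. Spry1, another Sprouty gene, fell in all 6 comparisons, at day 3 from 216 ± 8.64 CPM to 87.1 ± 4.86 in Erg, 87.6 ± 2.73 in Sox17 and 98.9 ± 6.59 in SEG. Dusp2, a nuclear phosphatase of ERK, rose in SEG from 0.157 ± 0.0535 to 13.4 ± 0.385 CPM at day 3 (log2 change 6.37) and from 0.304 ± 0.0449 to 13.0 ± 1.31 CPM at day 7. Dusp5, another nuclear ERK phosphatase, rose at day 7 from 3.82 ± 0.558 CPM to 58.8 ± 6.71 in Erg, 29.3 ± 5.95 in SEG and 13.7 ± 2.14 in Sox17. Lrig1, which lowers the level of growth factor receptors, rose in Erg at day 3 from 88.1 ± 4.03 to 617 ± 11.8 CPM and fell in Sox17 (34.3 ± 3.11 CPM) and SEG (58.1 ± 2.42 CPM).

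Genes that respond to ERK gave different counts in the 3 conditions. Of 22 tested, Erg had 4 higher and 7 lower at day 3 and 6 and 9 at day 7, with list medians of -0.20 and -0.38. Sox17 had 9 and 5 and then 13 and 3 (0.15 and 0.56), and SEG 10 and 4 and then 11 and 3 (0.38 and 0.65), where the lower count at day 7 was 6 without replicate 1 of Sox17. Plaur, the urokinase receptor, rose in Erg and SEG at both days, at day 3 from 13.7 ± 1.13 to 105 ± 7.82 and 87.3 ± 4.99 CPM. Hbegf, a ligand of the EGF receptor, rose in SEG to 82.0 ± 1.88 CPM and in Erg to 41.8 ± 1.003 CPM at day 7 from 8.44 ± 0.201 CPM. Ccnd1, which encodes cyclin D1, went from 748 ± 42.6 CPM at day 3 up to 2489 ± 23.3 in Erg and down to 191 ± 5.98 in Sox17 and 193 ± 2.84 in SEG. Fos fell in Erg at both days, at day 3 from 76.5 ± 4.27 to 23.8 ± 2.67 CPM, and Etv1, an ETS factor induced by FGF signalling, fell in Sox17 and SEG at day 7. In Sox17 at day 3 Areg rose to 3.88 ± 0.323 from 0.103 ± 0.0993 CPM, and Jun to 118 ± 3.65 from 31.0 ± 1.99 CPM. Of 6 FGF binding and release proteins tested, 0 were higher and 3 lower in Erg and in Sox17 at day 3, and 2 and 3 in SEG. At day 7 the counts were 1 and 3 in Erg, 3 and 2 in Sox17, and 2 and 3 in SEG. Fits that left out 1 library took the lower count in Sox17 at day 3 down to 1. They took the higher count at day 3 to 1 in Sox17 and in SEG, and at day 7 to 0 in Erg. Tgfbr3, a proteoglycan co-receptor that binds FGF2, fell in all 6 comparisons, in SEG at day 7 from 197 ± 11.6 to 29.3 ± 7.33 CPM. Ptx3, which sequesters FGF2, fell in Erg and SEG at both days and rose in Sox17 at day 7 (163 ± 6.89 against 71.1 ± 2.16 CPM). Thbs1 rose in SEG at both days, at day 3 from 2422 ± 174 to 6044 ± 228 CPM, and in Erg at day 7. Sparc rose in SEG at both days, and Fibp in Sox17 at day 7 (52.0 ± 33.2 against 28.8 ± 1.84 CPM). Fgfbp3 fell in Sox17 at both days.

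Markers of other cell types were summed in the same libraries. The 8 macrophage markers, none at 0 in any group, summed to 101.5 to 138 CPM in the control libraries and to 479 to 494 CPM in Erg at day 7. The 10 fibroblast markers were lower than in control at both days in Erg (19464 to 20200 CPM, then 10188 to 11343 CPM), Sox17 (15862 to 16268, then 6491 to 10553 CPM) and SEG (17662 to 18938, then 17439 to 19105 CPM), against 23208 to 24779 CPM in control at day 7. Of these 10 markers, 8 to 10 were called lower in each of the 6 comparisons with control, and in SEG at day 7 it was 8, with 1 higher and a median log2 change of -2.45. The 8 mural cell markers were highest in Sox17 at day 7, at 2840 to 4627 CPM, against 920 to 1012 CPM in control. The 7 cardiomyocyte markers summed to 94.5 CPM at most and the 8 epithelial and mesothelial markers to 17.4 CPM at most in any library. Their part in the changes of the FGF genes was not tested.

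The genes whose pattern was most alike were found by the correlation of log2 CPM group means over the 8 groups, a description over points that share their libraries. For Fgf7 they were Dnm2 (r = 0.975), Ttc7 (0.973) and Clmp (0.963), and for Fgf2 they were Sobp (0.988), Aldh1l1 (0.983) and Tiam1 (0.982). For Fgfr3 they were Prmt9 (0.987), Ipo13 (0.986) and Shank3 (0.985), for Fgfr2 Il10rb (0.990), Rbm10 (0.979) and Tsg101 (0.975), and for Fgfr1 Fam76b (0.982), Bace1 (0.970) and Syne2 (0.969). Dusp6 was most like Ttc7b (0.972), Pgm2l1 (0.972) and Ctla2b (0.956), Spry4 like Cpne2 (0.987), Calcb (0.978) and Chst2 (0.976), and Spry2 like Pml (0.974), Zbp1 (0.967) and Trex1 (0.963). The scarce ligands had the lowest values, Fgf10 with Ralgapa2 (0.961), Dhx40 (0.942) and Slc25a30 (0.914), and Fgf18 with Jmjd4 (0.961), Apod (0.937) and Ccdc137 (0.932).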

How the data were processed

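Deposited was a table of raw counts, whole numbers with 1 value for each gene and library. Per the labels, RNA was extracted with an RNeasy kit and Novogene made messenger RNA libraries. Per the submitters' processing notes, Salmon, DESeq2 and the build mm10 were used. The sources used here give no tool versions, strand setting or annotation release, and do not say whether Salmon's estimates were rounded. Of 35727 gene identifiers, 35422 matched a GENCODE M21 name, and every column matched a library by the name in its label.

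Genes passed edgeR 4.0.16's filterByExpr at a minimum count of 10, and libraries were scaled by TMM in R 4.3.3. CPM values used these scaled sizes. Levels of different genes were compared per kilobase of all annotated exons joined. All 24 libraries entered 1 quasi-likelihood fit with a mean for each of the 8 groups, and 21 comparisons were tested 2-sided at a Benjamini-Hochberg adjusted p under 0.05 over 14804 genes. Log2 changes are those of the fit (prior count 0.125), and log2 CPM for the most alike genes had a prior count of 2. The most alike were the 3 genes of highest correlation among those with at least 10 CPM in a group. Alternatives were DESeq2 1.42.0, RLE size factors, the unfiltered table, a replicate block, fits of only the groups compared, a test beyond 1.5-fold, leaving out each library, and leaving out replicate 1 of Sox17 and of SEG at day 7 together.

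The members and lists were chosen with earlier results of these data known. Named were all 10 members, the factors, the most alike genes and some genes of each list. The list genes came from the called genes with at least 1 CPM in each comparison with control. Up to 2 with the largest rise and 2 with the largest fall were taken, and only some of them were named, by no set rule. Where the libraries of a group summed to 0, folds used a floor of 3 counts for the whole group. Floors and 95% counting intervals cover counting error only. Totals ran from 18794422 to 44586227 counts a library. The test was tried on counts simulated for the day 7 comparison of SEG with control (14353 genes). It found 69 of 100 true 2-fold changes and 94 of 100 true 4-fold changes, and made 3 false calls. The simulated libraries had a common mean for each gene, apart from 200 genes changed in SEG at day 7, and none stood apart. In the real comparison 44.3% of genes were called and a SEG library stood apart, so these figures hold only for the simulated setting. In the real data, no pair of libraries of the same group agreed within sampling noise, so each counts once. Libraries of different groups were not compared in this way. Figures were made with matplotlib 3.10.9 in Python 3.11.15.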

Additional observations from a re-analysis of the deposited data

Results flagged for a closer look

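Effects against control that differed between day 3 and day 7, by a test of the difference itself (edgeR, adjusted over all genes), are listed as the log2 effect at day 7 minus that at day 3. For Fgf10 the difference was -2.13 in Erg (adjusted p = 0.0377), -3.25 in Sox17 (0.00944) and -4.17 in SEG (0.000328). The 3 effects share control libraries in which Fgf10 rose from 0.211 ± 0.145 to 0.814 ± 0.197 CPM between the days. For Fgf18, whose control level also rose, from 0.176 ± 0.0669 to 0.786 ± 0.388 CPM, it was -2.24 in Sox17 (0.00964) and -1.81 in SEG (0.0468).

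Spry4 effects were lower at day 7, by -0.72 in Erg (adjusted p = 0.00159), -0.59 in Sox17 (0.00962) and -0.54 in SEG (0.0211), and the Spry2 effect of Erg was 0.46 higher (0.00294). Among the receptors, the Erg effect on Fgfr2 was 1.71 higher at day 7 (0.00018) and that on Fgfr1 0.68 lower (-0.68, 0.00132), and the Sox17 effect on Fgfr3 was 1.26 higher (0.0129). Some of these calls were lost without single libraries. The Fgfr3 difference in Sox17 was 1.09 without control replicate 1 of day 3. That of Spry4 in SEG was -0.51 without control replicate 2 of day 3, -0.50 and -0.44 without control replicate 2 or 3 of day 7 and -0.47 without replicate 1 of SEG at day 7. That of Fgf10 in Erg did not pass in 8 of the fits that left out a library (-2.27 to -1.67), those without control replicate 2 or 3 of day 3 and replicate 1 or 3 of day 7, and Erg replicate 1 or 3 of day 3 and replicate 1 or 2 of day 7. That of Fgf18 in SEG did not pass in most such fits (-2.01 to -1.52), also without libraries of Erg or Sox17, or with DESeq2.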

How the results depend on the processing

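Of 210 pairs of a gene and a comparison, 137 were called, and 77 of these were called in the same direction in every alternative run. The other 60 called pairs lost the call in at least 1 alternative. Of all genes tested, 11.9% to 55.3% were called in a single comparison. How often calls of all genes held in every alternative was not counted, so the 77 cannot be set beside a share. Fgfr1 in SEG against Sox17 at day 7, not called at 0.00 with all libraries, changed sign with the Sox17 libraries: it was -0.15 without replicate 1 and 0.11 without replicate 3. DESeq2, RLE size factors and the replicate block kept the counts of called genes, over all genes and over the 10, within 1.5 times in the 21 comparisons.

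Libraries with the same replicate number shared no deviation at the median. Deviations from the group mean correlated by a median of 0.0028 over 84 pairs with the same number (-0.416 to 0.69). Over 168 pairs with other numbers the median was 0.0056 (-0.632 to 0.482). These medians cannot show whether the numbers pair libraries in some of the groups. With the number as a block, the change of the SEG effect on Fgf18 between the days no longer passed (-1.86, edgeR adjusted p = 0.0522), the Fgf2 change in Erg between the days did (-0.60, 0.049), and no other call of the 10 genes changed.

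A test of changes beyond 1.5-fold left fewer calls. The counts of all genes, each against the original count, were 3090 against 6827 (Erg against control at day 3), 2863 against 5987 (Sox17 against control at day 3), 2580 against 5946 (SEG against control at day 3), 3167 against 7182 (Erg against control at day 7), 3968 against 8062 (Sox17 against control at day 7), 3164 against 6557 (SEG against control at day 7), 3595 against 7551 (SEG against Erg at day 3), 1530 against 4184 (SEG against Sox17 at day 3), 4439 against 8182 (Sox17 against Erg at day 3), 3550 against 7320 (SEG against Erg at day 7), 2344 against 5910 (SEG against Sox17 at day 7), 4261 against 8138 (Sox17 against Erg at day 7), 1308 against 4368 (control between the days), 1234 against 4447 (Erg between the days), 1023 against 4368 (Sox17 between the days), 1253 against 4024 (SEG between the days), 814 against 2916 (change of the Erg effect between days), 638 against 2113 (change of the Sox17 effect between days), 502 against 1756 (change of the SEG effect between days), 2534 against 5326 (SEG against the sum at day 3) and 3833 against 7219 (SEG against the sum at day 7). For the 10 genes they were 4 against 9 (Sox17 against control at day 3), 4 against 7 (SEG against Erg at day 3), 3 against 6 (SEG against Sox17 at day 3), 4 against 8 (SEG against Erg at day 7), 4 against 7 (SEG against Sox17 at day 7), 5 against 8 (Sox17 against Erg at day 7), 1 against 4 (control between the days), 2 against 6 (Erg between the days), 0 against 3 (Sox17 between the days), 1 against 6 (SEG between the days), 1 against 5 (change of the Erg effect between days), 2 against 4 (change of the Sox17 effect between days), 1 against 3 (change of the SEG effect between days) and 5 against 8 (SEG against the sum at day 7). Fits of only the groups compared gave, over all genes, 4314 against 8062 (Sox17 against control at day 7), 6570 against 4184 (SEG against Sox17 at day 3), 2174 against 5910 (SEG against Sox17 at day 7), 4773 against 8138 (Sox17 against Erg at day 7), 7856 against 4368 (control between the days), 7058 against 4447 (Erg between the days), 857 against 4368 (Sox17 between the days), 6442 against 2916 (change of the Erg effect between days), 1129 against 2113 (change of the Sox17 effect between days), 2746 against 1756 (change of the SEG effect between days) and 8265 against 5326 (SEG against the sum at day 3), and over the 10, 2 against 7 (SEG against Sox17 at day 7), 4 against 8 (Sox17 against Erg at day 7), 0 against 3 (Sox17 between the days), 8 against 5 (change of the Erg effect between days), 2 against 4 (change of the Sox17 effect between days) and 6 against 3 (change of the SEG effect between days). Without both day 7 libraries that stood apart the counts were 7275 against 4184 (SEG against Sox17 at day 3), 7359 against 4368 (control between the days), 8162 against 4447 (Erg between the days), 6761 against 4024 (SEG between the days), 6593 against 2916 (change of the Erg effect between days), 3695 against 2113 (change of the Sox17 effect between days), 3774 against 1756 (change of the SEG effect between days) and 8233 against 5326 (SEG against the sum at day 3), and for the 10 genes 8 against 5 (change of the Erg effect between days) and 6 against 3 (change of the SEG effect between days). With no filter on low counts, the count of the 10 genes was 1 against 3 (change of the SEG effect between days).

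Leaving out each library in turn, with the original count in brackets, gave counts of all genes from 3462 to 7121 (Erg between the days, 4447), 3283 to 6179 (SEG between the days, 4024), 2339 to 5397 (change of the Erg effect between days, 2916), 1592 to 3199 (change of the Sox17 effect between days, 2113) and 1394 to 3335 (change of the SEG effect between days, 1756), and of the 10 genes from 2 to 5 (control between the days, 4), 3 to 6 (Sox17 between the days, 3), 4 to 8 (change of the Erg effect between days, 5) and 1 to 6 (change of the SEG effect between days, 3). Of the pathway list counts, 20 moved by over 1.5 times and 64 did not without both outlying libraries. The cause was not tested. For 4 of the 10 genes, fewer than 2 of the 3 most alike genes remained without the outlying libraries.

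Depth limits Fgf10 and Fgf18, whose libraries held 65 counts at most.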
